A study of Mus musculus with 12 samples.

Results

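The 9 Polycomb genes Ezh1, Ezh2, Eed, Suz12, Jarid2, Phf19, Cbx2, Cbx7 and Bmi1 were followed in mouse livers with NICD1/Akt-driven cholangiocarcinoma (CCA). They were chosen by symbol, found through the gene IDs of the count tables, and are 9 of 21807 genes. All 9 passed the filter on low counts at both stages. Ezh1, Suz12 and Cbx2 lie on chromosome 11, Phf19 and Bmi1 on chromosome 2, Ezh2 on chromosome 6, Eed on chromosome 7, Jarid2 on chromosome 13 and Cbx7 on chromosome 15. Ezh1, Cbx2 and Bmi1 overlap no other annotated gene, Cbx7 overlaps Apobec3 on the opposite strand, and the others overlap noncoding or predicted gene models, with which they may share reads. The 12 liver libraries, all from C57BL/6J mice, formed 4 groups of 3. NICD1/Akt livers were taken 2 weeks (libraries 33, 34 and 35) or 3 weeks (1, 2 and 3) after hydrodynamic tail vein injection (HTVi) of plasmids for NICD1, myr-AKT and the Sleeping Beauty transposase, and are labelled as liver with CCA tumor. Controls of 2 weeks (30, 31 and 32) and of 3 weeks (10, 11 and 12) are labelled WT liver and came from mice without an injection, although their labels carry the same times. The transgenes enter only a share of hepatocytes, so that each NICD1/Akt sample is a mixture of transfected and other cells. The methods describe male mice injected at 5 weeks of age. No source used here names the mouse behind a library, so that p-values measure the spread between libraries only, which may be technical. Where livers are counted below, libraries are meant.

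Polycomb proteins keep genes silent through histone marks. Polycomb repressive complex 2 (PRC2) is built from EED, SUZ12 and 1 of the catalytic paralogs EZH1 and EZH2, and methylates histone H3 at lysine 27; JARID2 and PHF19 are accessory subunits that guide it to chromatin. Canonical PRC1 carries a CBX protein such as CBX2 or CBX7, which reads this mark, together with a PCGF protein such as BMI1 and a RING1 protein, which ubiquitinates histone H2A. In many tissues EZH2 is high in dividing cells, whereas EZH1 is also present in resting ones, and BMI1 and EZH2 are known for silencing the Ink4 locus.

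Total counts ranged between 13136892 and 19594839 per library. Some libraries stood apart from their labels. Levels are given as CPM, counts per library total after multiplying that total by a TMM factor (0.781 to 1.49). Control 32 had 381 CPM of Akt1 and 106 CPM of Notch1, the genes encoded by the plasmids, against 90.1 and 90.9 CPM of Akt1 and 49.1 and 53.8 CPM of Notch1 in the other controls of 2 weeks. It also had 1875 CPM of the biliary gene Spp1, inside the 1054 to 4254 CPM that 2-week NICD1/Akt livers had. The Y-linked gene Ddx3y was at 57.2 CPM in control 32, but at 0 to 0.398 CPM in its 5 fellow libraries of 2 weeks, and at 52.2 to 126 CPM in the 6 later ones, so that stage and sex cannot be told apart in comparisons of 3 with 2 weeks. Control 32 was kept in its labelled group, and results that rest on it are also given without it. CPM were scaled over all 12 libraries, whereas the log2 fold change at a stage (log2FC, NICD1/Akt over control, with its standard error after ± or SE) rests on its own 6 libraries, so that both can differ slightly. Each adjusted p is edgeR's (quasi-likelihood test, Benjamini-Hochberg over all genes tested) where no other tool is named, and calls were made under 0.05. TMM scaling assumes that most genes do not change. With library size only, the median log2FC of all genes at 3 weeks was 0.77, a shift of 0.70, so that changes at 3 weeks are relative to the bulk of genes.

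At 3 weeks, 6 of the 9 Polycomb genes were higher in NICD1/Akt livers than in controls: Ezh1, Ezh2, Suz12, Phf19, Cbx2 and Bmi1. None was lower, and Eed, Jarid2 and Cbx7 did not pass the threshold. Among all 13408 genes tested, 38.9% were higher and 33.1% were lower. The median log2FC of the 9 genes was 0.48, and that of all genes tested was 0.06. For 7 of the 9 genes the 3 NICD1/Akt and the 3 control libraries did not overlap, which was the case for 77.8% of all genes. At 2 weeks, 0 of the 9 genes were called, as were 0% of all 13041 genes tested. At an unadjusted p under 0.05, Phf19 was the only member higher at 2 weeks, where 4.9% of all genes were, and it was also the only member whose groups did not overlap, where 16.1% of all genes did not. Across all genes, 1120 had an unadjusted p under 0.05 at 2 weeks, and DESeq2 called 25 genes, none of them a member. In bulk tissue, a different number of cells of a type and a different amount of RNA per cell cannot be told apart.

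**Figure D1:**
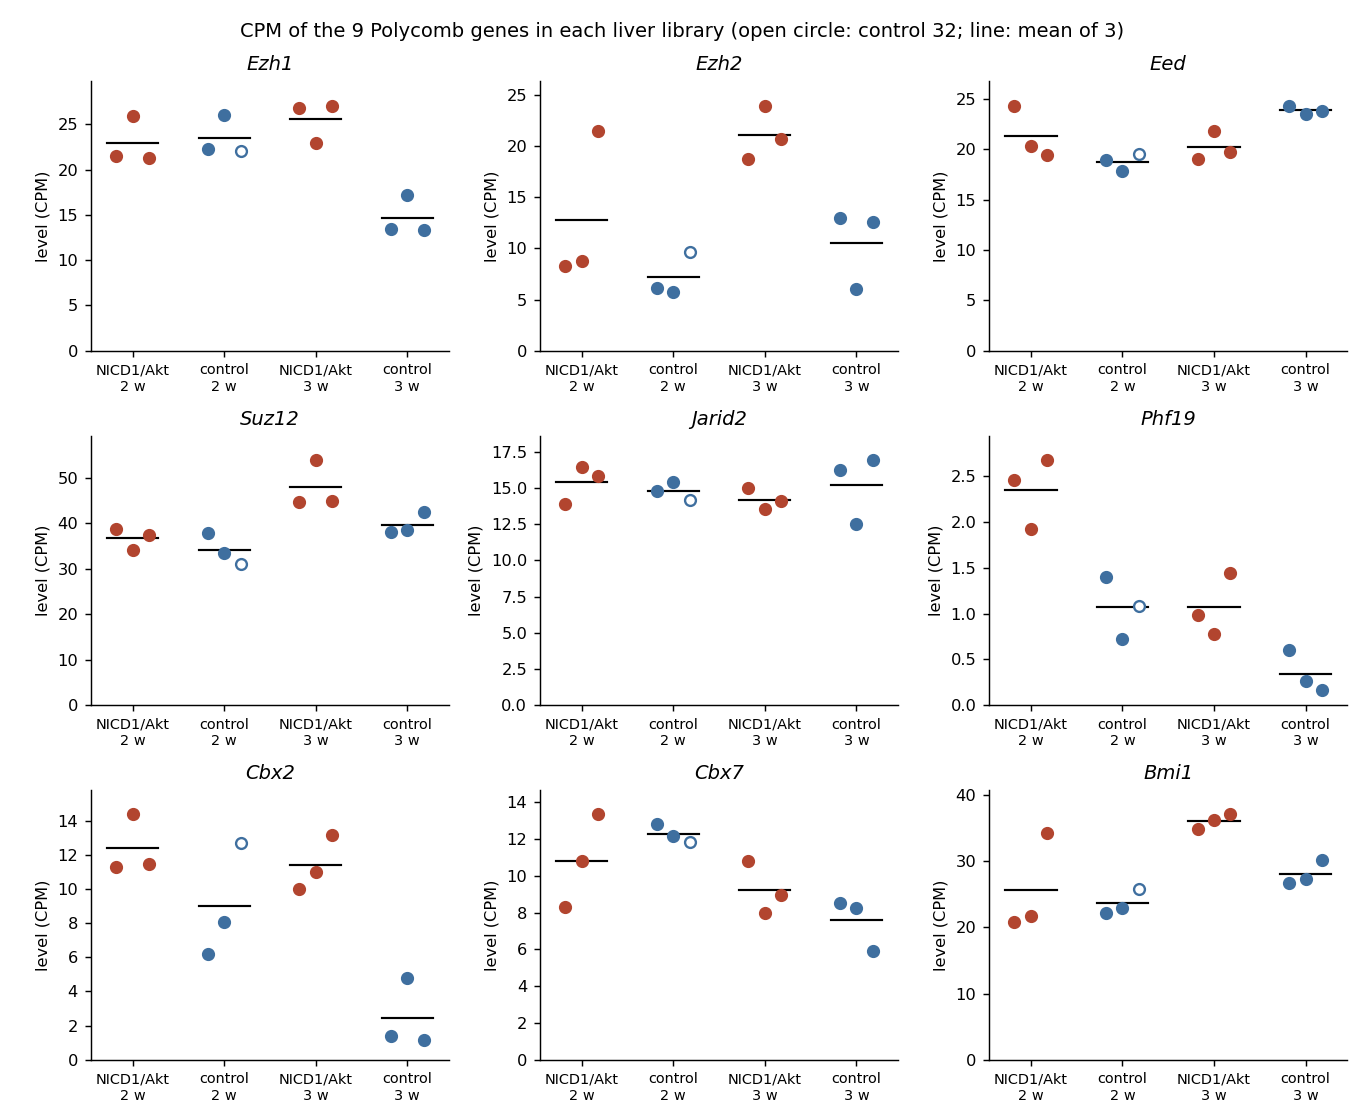
Levels of the 9 Polycomb genes in CPM (vertical axes from 0) in each liver library (points) with the mean of each group of 3 (lines), for NICD1/Akt and control livers at 2 and 3 weeks. The open circle is control 32. Cbx2 is at 10.0 to 13.1 CPM in 3-week NICD1/Akt livers, against 1.17 to 4.79 CPM in the controls of 3 weeks, whereas Jarid2 overlaps in all groups.

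Ezh2 (ENSMUSG00000029687.17), the paralog with the stronger methyltransferase activity, was measured at 18.8, 23.9 and 20.6 CPM in 3-week NICD1/Akt livers, against 12.9, 6.01 and 12.6 CPM in controls. Every NICD1/Akt liver lay above every control, and control 11 was lower than the other 2 controls. The log2FC was 1.12 (SE 0.25, adjusted p = 0.00379). Without control 11 it was 0.84 (adjusted p = 0.00118). At 2 weeks, Ezh2 had 8.30, 8.73 and 21.4 CPM in NICD1/Akt livers, against 6.12, 5.77 and 9.66 CPM in controls. Library 35 alone reached the levels of 3 weeks, control 32 lay above the other 2 NICD1/Akt livers, and the log2FC of 0.86 (SE 0.44) missed the threshold (adjusted p = 0.520). Without control 32 it was 1.13 (adjusted p = 0.293), and without library 35 it was 0.24 (adjusted p = 0.875).

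Ezh1 (ENSMUSG00000006920.15), which can take the place of Ezh2 in PRC2, was higher in NICD1/Akt livers at 3 weeks, with no detectable difference at 2 weeks. It was at 26.7, 22.9 and 27.1 CPM in 3-week NICD1/Akt livers, against 13.5, 17.2 and 13.3 CPM in controls (log2FC 0.92 ± 0.13, adjusted p = 0.000315). At 2 weeks it had 21.5, 25.9 and 21.3 CPM in NICD1/Akt livers, against 22.3, 26.0 and 22.0 CPM in controls (log2FC -0.03 ± 0.13, adjusted p = 0.931). The groups overlapped at 2 weeks and were apart at 3 weeks, where the controls lay below every other library of both stages. Ezh1 was the only member for which the effects at 3 and 2 weeks differed beyond the threshold, with a log2 difference of 0.84 ± 0.19 (adjusted p = 0.0130), a call made for 30.8% of all 13829 genes tested. Without control 32 this difference was 0.90 (adjusted p = 0.0160).

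In controls, Ezh1 was called lower at 3 than at 2 weeks and Ezh2 was not called. Whether the paralogs differed from each other over the 4 groups together was not tested. The promoters of both paralogs are shown as a description only. Both are RefSeq sequences (build GRCm38.p6) from 250 bases before to 50 bases after the start of transcription, on the strand of the gene, which is the minus strand for both. Capitals mark the E2F motif TTTGGCGC and the CCAAT box, each searched on both strands (as ATTGG where the box lies on the opposite strand).
Ezh2, chr6:47594981-47595280: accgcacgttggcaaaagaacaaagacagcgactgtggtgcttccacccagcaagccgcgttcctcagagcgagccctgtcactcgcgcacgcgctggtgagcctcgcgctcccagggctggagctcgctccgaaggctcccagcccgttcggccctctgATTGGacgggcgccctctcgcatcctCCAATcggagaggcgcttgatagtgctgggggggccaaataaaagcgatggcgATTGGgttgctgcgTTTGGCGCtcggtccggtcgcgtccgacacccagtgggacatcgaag
Ezh1, chr11:101226414-101226713: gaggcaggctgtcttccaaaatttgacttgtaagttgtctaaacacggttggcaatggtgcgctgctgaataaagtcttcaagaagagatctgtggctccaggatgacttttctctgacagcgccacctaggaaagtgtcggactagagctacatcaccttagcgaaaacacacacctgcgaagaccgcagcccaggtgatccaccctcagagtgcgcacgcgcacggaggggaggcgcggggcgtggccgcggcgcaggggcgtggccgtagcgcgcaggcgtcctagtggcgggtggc
E2F factors switch on genes of DNA replication, and CCAAT boxes bind NF-Y. Of the 8 members with a promoter in RefSeq's table, only Ezh2 held TTTGGCGC, 3 bases downstream of the start, and this motif was in 0.514% of the 32851 RefSeq promoters of this length that were searched. The Ezh2 promoter also held 3 CCAAT boxes at distances of -90, -64 and -11 bases, and 37.4% of all promoters held at least 1. The Ezh1 promoter held neither, and the E2F motif TTTCGCGC (0.323% of promoters) and the RBPJ motif GTGGGAA (6.38%), bound by the DNA-binding partner of NICD1, were found in no member. No motif overlapped another. Such matches describe letters in this window, not binding.

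The paralogs were also set against each other within a library, where scaling has no part, though 3 against 3 libraries cannot reach the threshold whatever the size of a shift. The log2 ratio of Ezh2 to Ezh1 counts was -0.28 ± 0.30 in 3-week NICD1/Akt livers, against -0.55 ± 0.83 in controls (SD, n = 3 each; exact two-sided permutation test, p = 0.800, where 0.1 is the smallest p possible). Controls 10 and 12 were at -0.06 and -0.08 and control 11 at -1.51. Without control 11 the difference of 0.27 turned to -0.21. At 2 weeks the ratio was -0.98 ± 0.86 in NICD1/Akt livers, against -1.74 ± 0.50 in controls (exact permutation p = 0.300). Library 35 was at 0.01 and the other NICD1/Akt livers at -1.37 and -1.56, so that the difference of 0.76 fell to 0.27 without library 35. Per kilobase of exon, Ezh1 averaged 3.44 and Ezh2 3.16 CPM in 3-week NICD1/Akt livers, and 1.97 and 1.57 CPM in controls. In controls of 2 weeks the averages were 3.15 CPM per kilobase for Ezh1 and 1.08 for Ezh2. The ranges of both paralogs overlapped in both groups of 3 weeks but not in the controls of 2 weeks.

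Mki67, a marker of dividing cells, was at 93.8, 121 and 108 CPM in 3-week NICD1/Akt livers, against 2.16, 0.696 and 1.58 CPM in controls (log2FC 6.30 ± 0.26, adjusted p = 5.13e-07). The summed level of 18 proliferation genes was 539 to 749 CPM in these NICD1/Akt livers, against 80.8 to 105 CPM in controls. Of the 18 genes, 17 were higher, where 38.9% of all genes were. At 2 weeks Mki67 had 29.0, 23.5 and 93.7 CPM in NICD1/Akt livers, against 11.2, 7.57 and 34.2 CPM in controls. Library 35, the NICD1/Akt liver of 2 weeks with the highest Ezh2, also had the highest Mki67 of its stage. Among the 3 controls of 3 weeks, both Ezh2 and Mki67 were highest in control 10 and lowest in control 11. Controls 10 and 12 had more Ezh2 than any control of 2 weeks, with less Mki67 than all of them. The part of dividing cells in the Ezh2 result was not tested. Across the 12 libraries, the genes most like Ezh2 were Psat1, an enzyme of serine synthesis (Pearson r of log2 CPM 0.970), Tes (0.969) and the Notch ligand Jag1 (0.967), out of 12718 genes. Like Ezh2, Jag1 was high in controls 10 and 12, with 33.6 and 33.4 CPM, and low in control 11, with 8.36 CPM. These correlations describe 12 libraries in 4 groups, and genes chosen by them share a pattern through that choice. For Ezh1 the most alike were C77080 (0.963), Tep1 (0.954) and Hs1bp3 (0.949). Each was likewise lowest in the controls of 3 weeks, which their choice by correlation with Ezh1 brings with it.

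**Figure D2:**
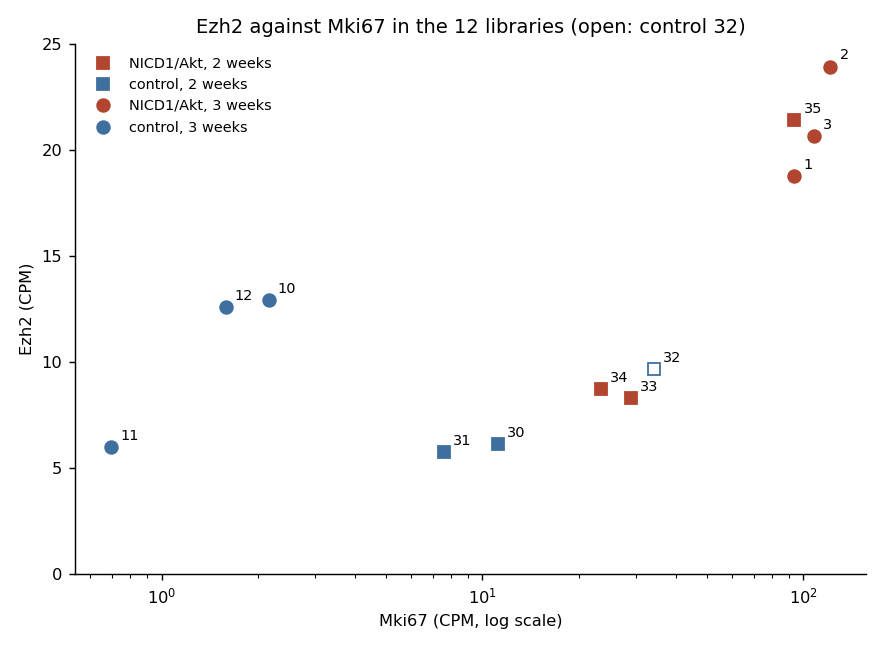
Level of Ezh2 (CPM, linear axis from 0) against that of Mki67 (CPM, log axis) in each of the 12 libraries, labelled by number, with red for NICD1/Akt and blue for control livers, squares for 2 weeks (open for control 32) and circles for 3 weeks. Library 35 sits with the 3 NICD1/Akt livers of 3 weeks at 21.4 CPM of Ezh2, and controls 10 and 12 are at 12.9 and 12.6 CPM of Ezh2 with 2.16 and 1.58 CPM of Mki67.

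Of the core subunits of PRC2, Suz12 was higher in NICD1/Akt livers at 3 weeks and Eed did not pass. Suz12 (ENSMUSG00000017548.16), needed for the stability of the complex, was at 44.8, 53.9 and 45.0 CPM in 3-week NICD1/Akt livers, against 38.1, 38.5 and 42.5 CPM in controls (log2FC 0.39 ± 0.10, adjusted p = 0.00890). The groups did not overlap, though the nearest values were 44.8 and 42.5 CPM. At 2 weeks Suz12 had 34.2 to 38.9 CPM in NICD1/Akt livers, against 31.1 to 37.8 CPM in controls (log2FC 0.12, adjusted p = 0.651). Eed (ENSMUSG00000030619.11), which binds the trimethyl mark and activates the enzyme, was at 19.1, 21.8 and 19.7 CPM in 3-week NICD1/Akt livers, against 24.3, 23.5 and 23.8 CPM in controls. The groups did not overlap in these levels, yet the log2FC of -0.12 (SE 0.09) missed the threshold (adjusted p = 0.277). Among members, Suz12 had the highest mean level per kilobase in every group. In 3-week NICD1/Akt livers the means in CPM per kilobase ran from Suz12 (9.69) and Bmi1 (9.06) over Eed (5.28), Ezh1 (3.44), Ezh2 (3.16) and Cbx2 (2.67) to Jarid2 (1.46), Cbx7 (1.43) and Phf19 (0.212). Suz12 and Bmi1 overlapped, as did Ezh1, Ezh2 and Cbx2, and Jarid2 and Cbx7. In 3-week controls the order was Suz12 (8.03), Bmi1 (7.06), Eed (6.23), Ezh1 (1.97), Ezh2 (1.57), Jarid2 (1.57), Cbx7 (1.17), Cbx2 (0.574) and Phf19 (0.0682). There Suz12, Bmi1 and Eed were apart from each other, and each neighbour between Ezh1 and Cbx2 overlapped the next.

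The accessory subunits differed from each other. Jarid2 (ENSMUSG00000038518.16), which links PRC2 to its targets, was at 13.5 to 15.0 CPM in 3-week NICD1/Akt livers, against 12.5 to 16.9 CPM in controls (log2FC 0.02 ± 0.14, adjusted p = 0.924), and at 13.9 to 16.4 CPM in 2-week NICD1/Akt livers, against 14.1 to 15.4 CPM in controls. All 4 groups overlapped. Phf19 (ENSMUSG00000026873.10), which binds methylated H3K36, was the member with the lowest level. It was at 0.985, 0.773 and 1.44 CPM in 3-week NICD1/Akt livers, against 0.604, 0.261 and 0.167 CPM in controls (log2FC 1.72 ± 0.50, adjusted p = 0.0139). The controls of 3 weeks held 12 counts of Phf19 in all, and the call was lost without control 12 (adjusted p = 0.0577). At 2 weeks Phf19 had 2.46, 1.92 and 2.68 CPM in NICD1/Akt livers, against 1.40, 0.721 and 1.08 CPM in controls, a log2FC of 1.15 (SE 0.37, adjusted p = 0.520). The log2FC of 3 over 2 weeks was -1.15 in NICD1/Akt livers (adjusted p = 0.0501) and -1.62 in controls (adjusted p = 0.0248), of which only that in controls passed.

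Of the other 8 PRC2 genes listed, 7 were tested. At 3 weeks Aebp2 and Mtf2 were higher and Rbbp4 and Lcor were lower, while Rbbp7, Phf1 and Epop did not pass. Among all genes tested, 38.9% were higher and 33.1% were lower. Aebp2, a DNA-binding cofactor, had 59.9, 73.5 and 57.6 CPM in NICD1/Akt livers, against 37.2, 36.6 and 35.5 CPM in controls (log2FC 0.92 ± 0.11, adjusted p = 0.000112). Mtf2, a relative of Phf19, had a log2FC of 0.38 (adjusted p = 0.0144). Rbbp4, a histone-binding protein that is shared with other chromatin complexes, had 139, 127 and 144 CPM in NICD1/Akt livers, against 242, 203 and 243 CPM in controls (log2FC -0.63 ± 0.11, adjusted p = 0.00108). The controls of 2 weeks had 100 to 141 CPM of Rbbp4, close to the NICD1/Akt livers of 3 weeks. Lcor, whose locus also encodes a PRC2 partner, had a log2FC of -0.33 (adjusted p = 0.0377), a call lost without control 11 or 12 or without library 2 or 3. That of Mtf2 was lost without control 10 or library 2. Against the 5 controls of both stages other than control 32, Aebp2 (1.04) and Mtf2 (0.55) still passed and Rbbp4 (-0.25) and Lcor (0.01) did not. With library size only, Rbbp4 was at 0.07, below the median of all genes, which was then 0.77. The values of the others were 0.01 for Rbbp7, -0.05 for Phf1 and 0.33 for Epop, with adjusted p of 0.923, 0.785 and 0.284.

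The largest fold change among the members was that of Cbx2 (ENSMUSG00000025577.8), a chromodomain protein that compacts chromatin. It was at 10.0, 10.97 and 13.1 CPM in 3-week NICD1/Akt livers, against 1.38, 4.79 and 1.17 CPM in controls (log2FC 2.34 ± 0.42, adjusted p = 0.00114). Control 11 stood above the other controls, and without it the log2FC was 3.26 (adjusted p = 2.27e-05). At 2 weeks Cbx2 had 11.3, 14.4 and 11.4 CPM in NICD1/Akt livers, against 6.19, 8.08 and 12.7 CPM in controls (log2FC 0.47 ± 0.29, adjusted p = 0.521). Control 32 lay among the NICD1/Akt livers, and without it the value was 0.80 (adjusted p = 0.206), while without control 30 it was 0.26 (adjusted p = 0.835). The log2 difference between the effects at 3 and 2 weeks was 1.76 ± 0.61 and just missed the threshold (adjusted p = 0.0503), and it was 1.45 without control 32 (adjusted p = 0.0979). Without control 11 the difference was 2.69 and passed (adjusted p = 0.00399).

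Cbx7 (ENSMUSG00000053411.17), the paralog that dominates in many differentiated tissues, was at 10.8, 7.95 and 8.94 CPM in 3-week NICD1/Akt livers, against 8.54, 8.27 and 5.92 CPM in controls (log2FC 0.41 ± 0.19, adjusted p = 0.0826). At 2 weeks it had 8.30, 10.8 and 13.3 CPM in NICD1/Akt livers, against 12.8, 12.2 and 11.8 CPM in controls (log2FC -0.17 ± 0.21, adjusted p = 0.704). The groups overlapped at both stages. Whether reads of Apobec3 on the opposite strand were counted for Cbx7 cannot be told, since the strand setting is not given in the sources used here. The log2 ratio of Cbx2 to Cbx7 counts was 0.30 ± 0.36 in 3-week NICD1/Akt livers, against -1.89 ± 0.97 in controls (SD, n = 3 each). All NICD1/Akt livers, at -0.12 to 0.55, lay above all controls, at -2.59 to -0.78, and the exact two-sided permutation p was 0.1, the smallest that 3 against 3 libraries allow. At 2 weeks the ratio was 0.21 ± 0.37 in NICD1/Akt livers, against -0.51 ± 0.58 in controls (exact permutation p = 0.200). Control 32 was at 0.10 and library 35 at -0.22, so that the groups overlapped, and the difference of 0.72 was 1.03 without control 32 and 0.46 without control 30. The genes most like Cbx7 across the 12 libraries were Zfp692 (Pearson r 0.909), Pabpn1 (0.906) and Kbtbd3 (0.903).

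**Figure D3:**
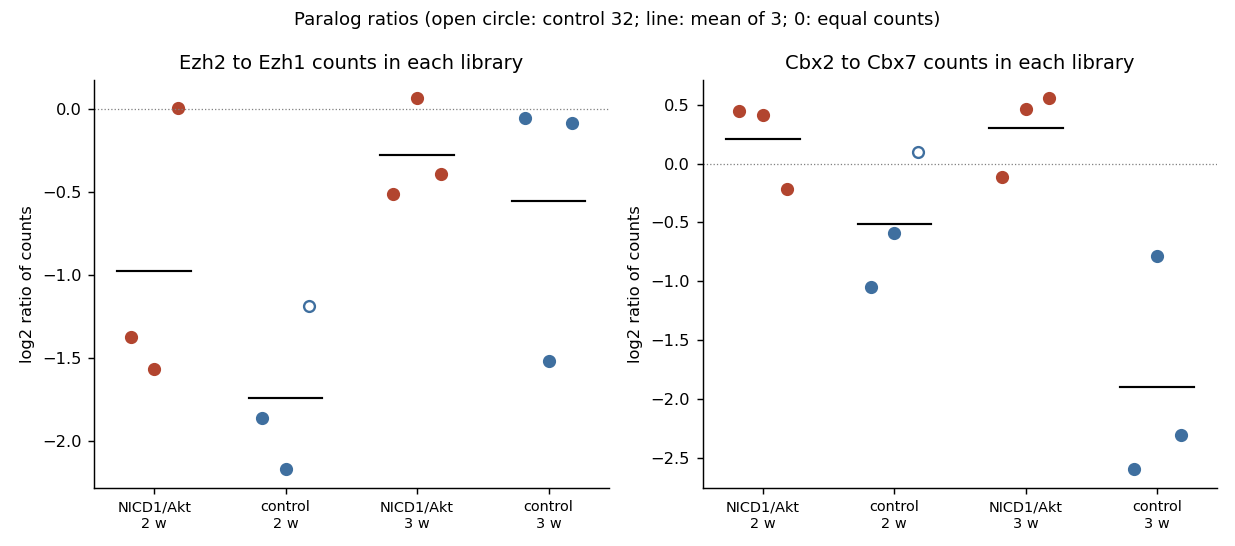
Log2 ratios of Ezh2 to Ezh1 counts (left) and of Cbx2 to Cbx7 counts (right) in each library (points), with the mean of each group of 3 (lines), where 0 stands for equal counts and the open circle for control 32. The Cbx2 to Cbx7 ratio is at -0.12 to 0.55 in NICD1/Akt livers of 3 weeks, against -2.59 to -0.78 in their controls, while the Ezh2 to Ezh1 ratio overlaps between both.

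Bmi1 (ENSMUSG00000026739.14), the PCGF subunit of canonical PRC1, was at 34.8, 36.2 and 37.0 CPM in 3-week NICD1/Akt livers, against 26.7, 27.3 and 30.1 CPM in controls (log2FC 0.48 ± 0.09, adjusted p = 0.00119). The groups did not overlap. With all 12 libraries in 1 fit the value was 0.36 and did not pass (adjusted p = 0.0782). At 2 weeks it had 20.8, 21.8 and 34.2 CPM in NICD1/Akt livers, against 22.2, 22.9 and 25.8 CPM in controls (log2FC 0.13, adjusted p = 0.789). Library 35 alone was high, and without it the value was -0.16 (adjusted p = 0.803).

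Of the 9 other canonical PRC1 genes that were tested at 3 weeks, 7 were higher in NICD1/Akt livers and 0 lower, where 38.9% and 33.1% of all genes were, and their median log2FC was 0.95, against 0.06 for all genes. Cbx6 had 46.9, 50.7 and 51.8 CPM in NICD1/Akt livers, against 6.99, 6.70 and 6.34 CPM in controls (log2FC 3.02 ± 0.10, adjusted p = 2.09e-07). Cbx6 overlaps Npcd on the same strand, so that reads of both genes may not be told apart. Phc1, a polyhomeotic subunit that joins complexes into larger bodies, had 15.8, 18.7 and 18.4 CPM in NICD1/Akt livers, against 4.14, 2.79 and 2.42 CPM in controls (log2FC 2.62, adjusted p = 9.22e-06). Pcgf2, the closest paralog of Bmi1, had 21.8, 20.3 and 18.4 CPM in NICD1/Akt livers, against 4.14, 4.61 and 6.17 CPM in controls (log2FC 2.14, adjusted p = 1.11e-05). Cbx8 (1.21), Phc2 (0.95), Phc3 (0.76) and Scmh1 (0.73) were higher too, by these log2FCs and with adjusted p of 4.38e-05 to 0.000832. The catalytic subunits Ring1 (0.31, adjusted p = 0.114) and Rnf2 (0.05, adjusted p = 0.570) did not pass. Against the 5 controls of both stages other than control 32, Cbx6 (2.71), Phc1 (2.29), Pcgf2 (1.91), Phc2 (0.91), Phc3 (0.88) and Scmh1 (0.51) still passed and Cbx8 (0.75, adjusted p = 0.0939) did not. Scml2 was not tested at either stage, with 43 counts in the 3 NICD1/Akt livers of 3 weeks and 2 counts in their controls, a ratio of 10.1 (95% counting interval 2.62 to 85.7).

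**Figure D4:**
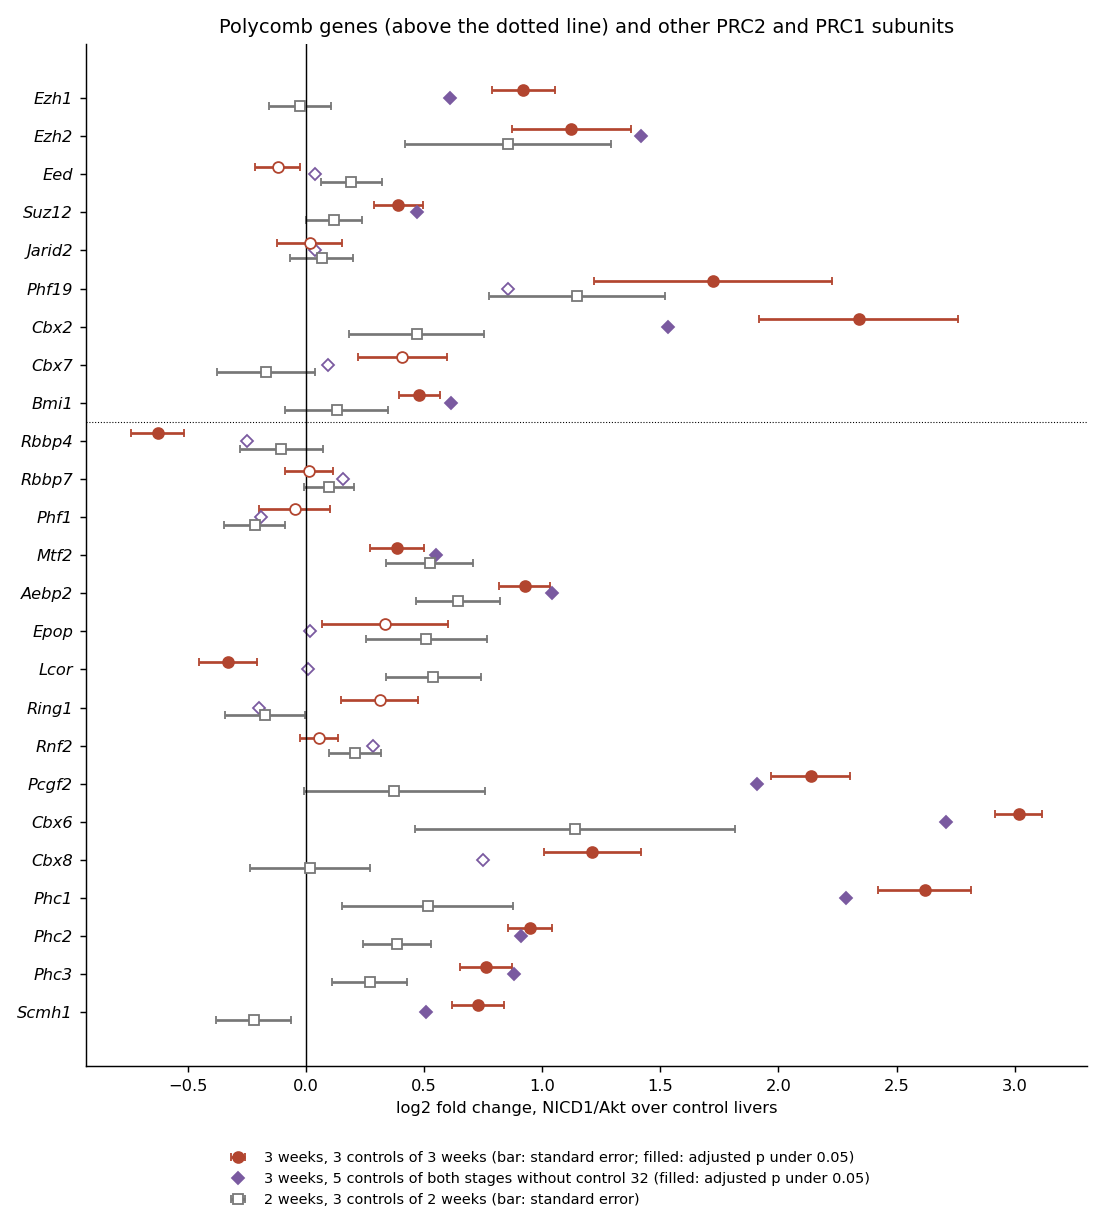
Log2 fold changes of NICD1/Akt over control livers for the 9 Polycomb genes (above the dotted line) and 16 further PRC2 and PRC1 subunits: 3 weeks against the controls of 3 weeks (circles, bars are standard errors), 3 weeks against the 5 controls of both stages other than control 32 (diamonds) and 2 weeks against the controls of 2 weeks (squares, bars are standard errors). Filled circles and diamonds passed an adjusted p of 0.05. Ezh2, Suz12 and Bmi1 have diamonds to the right of their circles, at 1.42, 0.47 and 0.61, whereas those of Ezh1, Phf19 and Cbx2 are to the left, at 0.61, 0.85 and 1.53.

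The controls of the stages differed in many of these genes. In controls at 3 weeks against those at 2 weeks, 4 of the 9 members were lower (Ezh1, Phf19, Cbx2 and Cbx7), where 20.4% of all 13829 genes were, and Eed was the only member higher, where 17.4% of all genes were. Within NICD1/Akt livers, Suz12 and Bmi1 were higher at 3 than at 2 weeks, and no member was lower, where 28.4% of all genes were called in either direction. The call of Bmi1 (log2FC 0.49 ± 0.17, adjusted p = 0.0498) was lost when any library other than 35 was left out, with an adjusted p of 0.0593 to 0.176. That of Suz12 (0.38 ± 0.11, adjusted p = 0.0255) was lost without library 33, 34 or 2. Library 35 bore on other comparisons too: without it, Ezh2 was higher in 3-week than in 2-week NICD1/Akt livers (log2FC 1.31, adjusted p = 0.00808), and the effects at 3 and 2 weeks differed for Bmi1 (by 0.51, adjusted p = 0.0111) and Eed (by -0.49, adjusted p = 0.0204).

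For Ezh1 the log2FC of 3 over 2 weeks was 0.16 in NICD1/Akt livers (SE 0.14, adjusted p = 0.386) and -0.68 in controls (SE 0.14, adjusted p = 0.00355). For Cbx2 it was -0.12 in NICD1/Akt livers (SE 0.41, adjusted p = 0.842) and -1.88 in controls (SE 0.46, adjusted p = 0.00883). Cbx7 followed with -0.23 in NICD1/Akt livers (adjusted p = 0.402) and -0.70 in controls (adjusted p = 0.0222). For these 3 genes only the change within controls passed, and the difference between both changes passed for Ezh1 but neither for Cbx2 (adjusted p = 0.0503) nor for Cbx7 (0.47, adjusted p = 0.222). Ezh2 was at 0.71 in NICD1/Akt livers (SE 0.38, adjusted p = 0.184) and 0.55 in controls (SE 0.40, adjusted p = 0.297), of which neither passed. Among other canonical PRC1 genes, 6 of 10 were lower in controls of 3 weeks than in those of 2 weeks and 1 was higher, where 20.4% and 17.4% of all genes were. Without control 32 the lower calls of Ring1, Cbx8 and Scmh1 held, and those of Cbx6 (-0.73, adjusted p = 0.206), Pcgf2 (-0.57, adjusted p = 0.154) and Phc1 (-0.77, adjusted p = 0.0804) were lost. Of the members, the calls of Ezh1, Phf19, Cbx2 and Cbx7 in controls held without control 32, with log2FCs of -0.74, -1.63, -1.57 and -0.74. Those of Phf19 and Cbx7 were lost without control 30 or without control 12, and that of Phf19 also without control 11, with adjusted p of 0.0585 to 0.0874. That of Eed (0.35 ± 0.11, adjusted p = 0.0275) was lost without any of controls 30, 31, 10, 11 or 12.

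**Figure D5:**
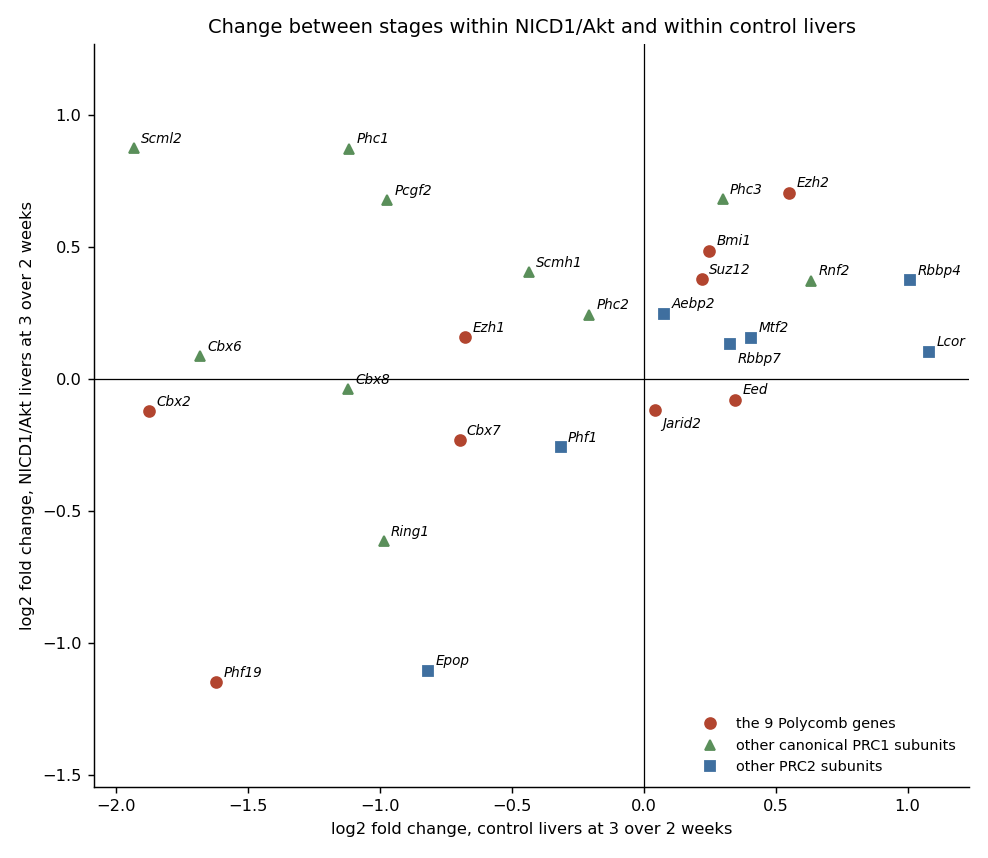
Log2 fold change of 3 over 2 weeks within NICD1/Akt livers (vertical axis) against that within control livers (horizontal axis) for the 9 Polycomb genes (circles), other canonical PRC1 subunits (triangles) and other PRC2 subunits (squares), from the fit of all 12 libraries. Cbx2 lies at -1.88 for controls and -0.12 for NICD1/Akt livers, while Suz12, Bmi1 and Ezh2 lie above 0 on both axes.

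Because the controls differed between stages, the NICD1/Akt livers of 3 weeks were also set against the 5 controls of both stages other than control 32, an alternative chosen after seeing the data. Against these, 5 of the 9 members were higher, where 30.4% of all genes were. All 5 were among the 6 calls. The share of all higher calls that held was not computed. The log2FCs were 1.42 for Ezh2 (adjusted p = 0.00560), 0.61 for Bmi1 (adjusted p = 0.00377), 0.47 for Suz12 (adjusted p = 0.00980), 1.53 for Cbx2 (adjusted p = 0.0459) and 0.61 for Ezh1 (adjusted p = 0.0464). That of Phf19 was 0.85 and did not pass (adjusted p = 0.237). With control 32 added, so that all 6 controls entered and 24.5% of all genes were higher, Ezh1 (0.42, adjusted p = 0.141) and Cbx2 (0.99, adjusted p = 0.219) no longer passed. Every NICD1/Akt liver of 3 weeks was above all of the 5 controls for Ezh2, Suz12, Cbx2 and Bmi1, whereas Ezh1 reached 26.0 CPM in these controls and 22.9 CPM in the lowest NICD1/Akt liver. How many of all genes were likewise apart from these 5 controls was not computed. These 5 controls mix stages and Ddx3y levels.

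Genes that work with or against the Polycomb complexes showed no common direction. Of 13 variant PRC1 genes, 6 were higher and 4 were lower at 3 weeks, where 38.9% and 33.1% of all genes were. Auts2 had a log2FC of 3.67 (adjusted p = 2.60e-06) and Kdm2b, which brings variant PRC1 to CpG islands, of 1.14 (adjusted p = 0.000315). Bcor (-0.92, adjusted p = 6.91e-05) and E2f6 (-0.97, adjusted p = 0.000333) were lower, and their levels in controls of 3 weeks, 35.8 to 44.0 and 31.2 to 42.3 CPM, stood above those of all other groups. In the H2A deubiquitinase complex, which removes the mark of PRC1, Foxk1 was higher (0.74, adjusted p = 0.00185), Bap1 (-0.33, adjusted p = 0.00699) and Foxk2 (-0.30, adjusted p = 0.0139) were lower, and Asxl2 (0.21, adjusted p = 0.207) did not pass. Both H3K27 demethylases were lower: Kdm6a had a log2FC of -0.46 (adjusted p = 0.00279) and Kdm6b of -0.63 (adjusted p = 0.0377). Kdm6b had 102, 82.9 and 76.5 CPM in NICD1/Akt livers, against 167, 93.5 and 178 CPM in controls, of which control 11 overlapped the NICD1/Akt livers, and its call was lost without control 10 or 12 or library 2 or 3. Against the 5 controls of both stages other than control 32, none of Kdm2b (0.50), Bcor (-0.48), E2f6 (-0.55), Bap1 (-0.16), Foxk2 (0.04), Kdm6a (-0.36) and Kdm6b (-0.16) passed, with adjusted p of 0.0516 to 0.914. With library size only, Kdm6a and Kdm6b were at 0.25 and 0.08, both below the median of all genes, which was then 0.77.

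Genes known as Polycomb targets were mostly at low levels. Cdkn2a, which encodes p16 and p19 in the mouse, had 94 counts in the 3 NICD1/Akt livers of 3 weeks, against 3 counts in controls, a ratio of 14.7 (95% counting interval 4.86 to 72.3). Its levels were 1.48, 0.921 and 1.40 CPM in NICD1/Akt livers, against 0, 0.174 and 0.0834 CPM in controls (adjusted p = 0.000582). Its neighbour Cdkn2b was at 1.74, 2.65 and 2.28 CPM, against 0.345, 0 and 0.333 CPM in controls (log2FC 3.37, adjusted p = 0.000654). Both were higher in the same livers in which Ezh2 and Bmi1 were. Of 39 Hox genes, 20 had no count in any library and 6 were tested at 3 weeks. Hoxb2 (2.18, adjusted p = 0.000591) and Hoxa3 (1.15, adjusted p = 0.0478) were higher and Hoxa5 (-1.44, adjusted p = 0.0114) was lower, by these log2FCs, and the calls of Hoxa3 and Hoxa5 depended on single libraries: Hoxa5 did not pass without control 12 (adjusted p = 0.0557), nor Hoxa3 without any library but 2 (adjusted p of 0.0702 to 0.150). Hoxb3 (1.02, adjusted p = 0.0560) did not pass.

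Cell type markers moved with the same contrast. At 3 weeks, 38.9% of all genes tested were higher and 33.1% were lower, the base for the counts below. Hepatocyte markers summed to 25273 to 38474 CPM in 3-week NICD1/Akt livers, against 106302 to 110752 CPM in controls, with 9 of 10 lower, and were abundant in every library, as the liver label has it. None of the markers listed was at 0 in all libraries. Biliary markers summed to 3454 to 4051 CPM against 92.7 to 135 CPM in controls (6 of 6 tested higher), of which Spp1 made up most, the other 7 summing to 416 to 506 CPM against 58.5 to 92.3 CPM, macrophage markers to 311 to 465 CPM against 101 to 140 CPM (7 of 7 higher), and stellate cell and fibroblast markers to 2485 to 3384 CPM against 206 to 303 CPM (6 of 8 higher). Endothelial markers summed to 209 to 268 CPM against 309 to 357 CPM in controls, with 1 of 6 higher and 2 lower. The list of lymphocyte markers, which includes Ptprc, summed to 27.05 to 28.1 CPM against 13.9 to 21.4 CPM. Of its 3 genes tested, only Ptprc was higher (log2FC 1.09, adjusted p = 0.00222). Cd4 was lower (-0.85, adjusted p = 0.00828) and Cd3e did not pass (0.0015, adjusted p = 0.997). At 2 weeks, control 32 had 2030 CPM of biliary and 1588 CPM of stellate cell and fibroblast markers, against 87.2 to 89.2 CPM and 463 to 492 CPM in controls 30 and 31. Without Spp1, its biliary sum was 155 CPM, against 30.6 and 35.5 CPM. The summed level of the 9 Polycomb genes was 181 to 192 CPM in 3-week NICD1/Akt livers, against 138 to 146 CPM in controls, and 150 to 177 CPM in 2-week NICD1/Akt livers, against 142 to 148 CPM in controls. The part of cell composition in the levels of the Polycomb genes was not tested.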

How the data were processed

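RNA of mouse liver was read as 12 stranded poly(A) libraries. Per the labels and the values, the authors deposited raw counts (reads assigned to each gene, whole numbers), 1 table a stage. Methods and submitters' processing notes differ on how these were made (STAR, mm10 and HTSeq in the methods; STAR 2.7, GRCm39 and Subread 2.0.6 in the notes), and whether counting used strand is not given in the sources used here. Of 21807 gene IDs, 21573 had a symbol in GENCODE M21.

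edgeR 4.0.16 in R 4.3.3 gave CPM and tests (TMM, filterByExpr with its defaults, quasi-likelihood test with Benjamini-Hochberg adjustment over all genes tested). Each stage was fitted on its 6 libraries. Comparisons of 3 with 2 weeks, and the difference between the stages' effects, used all 12 libraries in 1 fit. Paralog ratios used counts plus 0.5 and exact permutation tests. Exon lengths and overlapping genes are from GENCODE M21, and promoters, without chromosome 18, from RefSeq.

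The members and gene lists were chosen with earlier results of these data known. Named genes were the members, the other PRC2 and canonical PRC1 subunits that were measured, from each further list up to 4 genes, taken by adjusted p at 3 weeks, Notch1 and Akt1, and the 3 genes most correlated with each of Ezh2, Ezh1 and Cbx7 (mean of at least 1 CPM, log2 of CPM plus 0.5). One canonical PRC1 gene is not reported here. Spp1 and Ddx3y were added as checks of the labels. The scripts were tested on simulated data. Libraries of a group differed by more than counting error (chi-square per gene 4.96 to 136), so that none was a repeat deposit. Counting intervals cover counting error only. Alternatives were edgeR's likelihood ratio test, DESeq2 1.42.0, other scaling, other filters, all 12 libraries in 1 fit, pooled controls, other added counts and leaving out each library.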

Additional observations from a re-analysis of the deposited data

Results flagged for a closer look

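Of 59 genes reported here and tested, 23 had effects of NICD1/Akt that differed between 3 and 2 weeks by edgeR's test of the difference itself (adjusted p under 0.05), where 30.8% of all genes did. Many of the 59 were named by their adjusted p at 3 weeks or by their correlation with a member. Their share therefore cannot be read against that of all genes. The values are differences of log2 fold changes, 3 weeks minus 2 weeks. Ezh1 was the only member among them, at 0.84 (adjusted p = 0.0130). Canonical PRC1 genes were at 1.99 for Phc1, 1.65 for Pcgf2, 1.08 for Cbx8 and 0.84 for Scmh1. PRC2 partners were at -0.63 for Rbbp4 and -0.98 for Lcor. Of the variant PRC1 genes, Kdm2b was at 0.99, Bcor at -1.57 and E2f6 at -1.05. The deubiquitinase genes Bap1 and Foxk2 were at -0.40 and -0.48, and the demethylases Kdm6a and Kdm6b at -0.70 and -1.05. The proliferation genes Bub1, Ccna2, Mki67 and Mcm5 were at 5.37, 4.71, 4.70 and 3.42, Notch1 at 2.05 and Spp1 at 4.77 (adjusted p = 0.0466). The genes most like Ezh1, chosen by that likeness over the same libraries, were at 1.14 for Hs1bp3, 0.99 for C77080 and 0.79 for Tep1. Without control 32, the differences of Spp1 (1.19, adjusted p = 0.219), Cbx8 (0.97, adjusted p = 0.0652), Bap1 (-0.37, adjusted p = 0.0660) and Kdm6a (-0.50, adjusted p = 0.0602) no longer passed.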

How the results depend on the processing

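At 3 weeks 6 members were called higher, against 3 with all 6 controls, 9 with library size only (Eed, Jarid2 and Cbx7 included), 7 with upper quartile factors (Cbx7 included), 5 with the 5 controls without control 32, a mean of at least 1 CPM or 1 fit of 12 libraries, and 5 to 6 without 1 library. With library size only, 9076 of all 13408 genes were called higher. At 2 weeks 0 genes passed, also without any 1 library, against 25 by DESeq2, 12 by the likelihood ratio test and 1034 against the 5 controls without control 32. Of 9650 genes called at 3 weeks, 54.1% were higher; upper quartile factors made this 62.7% and library size only 87.6%. For the difference between stages, 1 member was called higher, against 2 by DESeq2, RLE or upper quartile factors or a mean of at least 1 CPM, 3 with library size only, and 1 to 2 higher and 0 to 1 lower without 1 library (genes: 4258, range 2404 to 6801). Within NICD1/Akt livers, 2 members were higher (1 with upper quartile factors, 0 to 3 without 1 library) and 0 lower (1 by DESeq2 or a mean of at least 1 CPM, 0 to 1 without 1 library; genes: 3932, range 1990 to 6689). Within controls, 1 was higher (0 with library size only or upper quartile factors, 0 to 2 without 1 library) and 4 were lower (2 to 4; genes: 5222, range 3804 to 6231). Signs turned mostly in values near 0. At 2 weeks Ezh1 was at 0.18 with library size only, 0.0049 with upper quartile factors, 0.28 with 6 and 0.33 with 5 controls, Cbx7 at 0.079, 0.15 and 0.21 with library size only, 6 and 5 controls, and Suz12 at -0.024 with 5 controls. At 3 weeks Eed was at 0.59 with library size only, 0.037 with upper quartile factors and 0.036 with 5 controls, Jarid2 at -0.10 in 1 fit of 12 libraries and -0.081 with 6 controls, and Cbx7 at -0.10 with 6 controls. For the difference, Eed and Jarid2 were at 0.20 and 0.44 with library size only, and Jarid2 at 0.063 with upper quartile factors. Within NICD1/Akt livers, library size only gave 0.37 for Eed, 0.31 for Jarid2, 0.33 for Cbx2 and 0.16 for Cbx7. Within controls, Jarid2 was at -0.13 with library size only or upper quartile factors. Without 1 library, Ezh1 spanned -0.12 to 0.051 and Bmi1 -0.16 to 0.26 at 2 weeks, Jarid2 -0.11 to 0.093 at 3 weeks, Ezh2 -0.12 to 0.76 for the difference, Eed -0.14 to 0.025 within NICD1/Akt livers, Jarid2 -0.039 to 0.17 within controls, and the Ezh2 to Ezh1 ratio -0.21 to 0.52 at 3 weeks. With library size only, the median log2FC of all genes was 0.77 at 3 weeks, 0.59 for the difference and 0.43 within NICD1/Akt livers. Relative to these, Eed was at -0.18, -0.39 and -0.055, and Jarid2 at -0.047, -0.16 and -0.12. Within NICD1/Akt livers Cbx2 was at -0.10 and Cbx7 at -0.27. The signs that library size only had turned there were those of the main fit, but that of Jarid2 at 3 weeks turned. What else turned signs was not tested. The likelihood ratio test, RLE factors and no filter on low counts turned no member's sign. No paired analysis was possible because the groups share no replicate numbers. Among the members depth limits Phf19 most, with 12 counts in 3 controls.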
